A study of Mus musculus with 25 samples.

Results

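The comparison of genotypes in untreated livers at 20 weeks took in 8 of the 25 liver libraries of the series. They were chosen by their labels alone: 4 C57BL/6 mice labelled Ncoa5+/- and 4 labelled wild type, all aged 20 weeks, all without metformin and all on standard diet. Each library was made from the total liver of 1 mouse, frozen at dissection, so every value is a mixture over cell types. The other 17 mice, aged 39 weeks, were sequenced as a separate cohort by another facility. They enter here only through a comparison of the 9 untreated ones among them, whose fit also held the metformin-treated mice of that age. The values are FPKM, fragments per kilobase of transcript scaled to the mapped fragments of a library, as deposited for each mouse.

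Ncoa5 encodes a coregulator of nuclear receptors, among them the oestrogen receptor, and mice with a disrupted copy of the gene are known for glucose intolerance and liver tumours in later life. Hepatocytes make most plasma proteins, and these fold in the endoplasmic reticulum (ER) with the help of chaperones and disulfide isomerases. When unfolded protein accumulates there, the membrane sensors PERK, IRE1 and ATF6 start the unfolded protein response, which raises the chaperones, the export machinery and the factors that return misfolded proteins to the cytosol for degradation.

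Ncoa5 itself (GRCm38, chr2:165000353-165034867) was read at 3.88, 2.90, 5.03 and 3.61 FPKM in Ncoa5+/- replicates 1 to 4 and at 3.56, 3.11, 5.30 and 4.08 FPKM in wild type replicates 1 to 4. The ranges overlapped almost fully, with means of 3.85 ± 0.884 and 4.01 ± 0.944 FPKM (SD, n = 4 and 4). The difference on the log2(FPKM + 1) scale was -0.05 (two-sided exact permutation test, p = 0.8, adjusted p = 0.8 over the 2 genes tested this way), with a 95% interval of -0.445 to 0.353 from limma. If the wild type mean were halved, the difference would be -0.738, which lies outside that interval. The locus value is a sum over all transcripts assigned to the gene, and the labels do not say which part of it the mutation removes. The genotypes below are therefore those of the labels, and every direction is drawn between the libraries labelled Ncoa5+/- and the libraries labelled wild type.

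Of the 10963 loci whose mean over the 8 mice reached 1 FPKM, 0 differed between the genotypes at an adjusted p under 0.05 in limma (0.0%), and the smallest adjusted p was 0.603. At an unadjusted p under 0.05, 554 loci stood higher in Ncoa5+/- (5.05%) and 266 lower (2.43%). Every Ncoa5+/- mouse lay above every wild type mouse at 325 loci (2.96%) and below every wild type mouse at 116 loci (1.06%). The median log2 fold change over all loci was 0.0283, and 54.4% of loci had a fold change above 0. With limma's threshold unmet, genes are described below by the value in each mouse, by the log2 fold change on the log2(FPKM + 1) scale with its standard error (SE), and by whether the groups overlap.

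The libraries differed in ways that the genotype labels do not account for. FPKM sums ran from 695645 to 1613503, and the 50 highest loci took 43.0% to 78.7% of the sum, the latter in wild type replicate 4. The closest pair of libraries was wild type replicates 3 and 4 (r = 0.974 across loci, which are not independent replicates). These are also the 2 mice whose titles carry a letter before the animal number, while the other 6 carry a number alone. Pairs of mixed genotype ran from 0.919 to 0.967. FPKM files hold no fragment counts, so the depth behind each value is unknown.

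Gene lists were read in each mouse as the mean, over the members tested, of the log2 deviation from the mean of the 8 mice. Of 39 lists, 4 had all Ncoa5+/- mice above all wild type mice and 0 had them all below: ER protein folding, p53 targets, globin and other erythroid genes, and complement and coagulation. In the other 35 lists the genotypes overlapped. The acute phase list was raised mainly in 2 Ncoa5+/- mice, and the macrophage list was highest in 2 wild type mice. The acute phase list stood at -0.215, -0.378, 1.72 and 0.651 in Ncoa5+/- replicates 1 to 4 and at -0.348, -0.279, -0.455 and -0.700 in wild type replicates 1 to 4. The macrophage list stood at 0.154, -0.493, -0.395 and -0.426 and -0.319, 0.071, 0.882 and 0.527 in the same order.

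**Figure D1:**
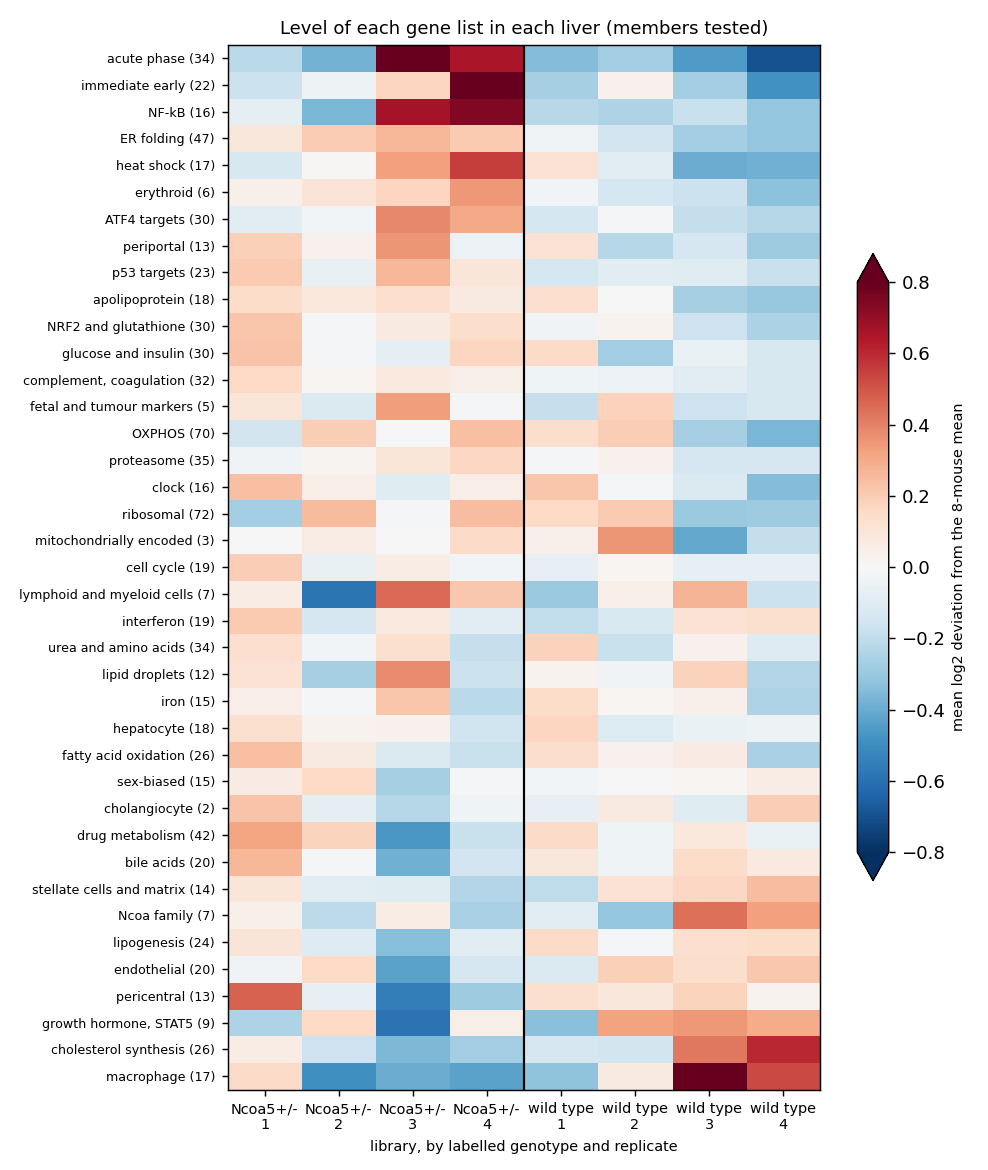
Heat map of 39 gene lists (rows, with the number of members tested) in 8 livers (columns, 4 labelled Ncoa5+/- and 4 wild type). Colour is the mean log2 deviation of the members from the mean of the 8 mice. The ER folding row has 1 sign on each side of the line between genotypes, while the acute phase row is dark in Ncoa5+/- replicates 3 and 4 and the macrophage row in wild type replicates 3 and 4.

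ER folding genes were the largest of the 4 lists without overlap. Their list level was 0.089, 0.200, 0.268 and 0.210 in Ncoa5+/- replicates 1 to 4 and -0.028, -0.153, -0.273 and -0.312 in wild type replicates 1 to 4. Of 49 genes, 47 were tested and 2 share a locus with another gene. Of the 47, 42 had a fold change above 0, 15 had every Ncoa5+/- mouse above every wild type mouse (2.96% of all loci tested), and 0 had the reverse (1.06% of all loci). The median log2 fold change was 0.37, and 22 of the 47 had an unadjusted p under 0.05 with a higher level in Ncoa5+/- (5.05% of all loci). As a plain sum of FPKM the 47 genes came to 4285, 4937, 5096 and 5184 in Ncoa5+/- and 4308, 3667, 3450.5 and 3319 in wild type, so that wild type replicate 1 lay slightly above Ncoa5+/- replicate 1 on that scale. The sum is weighted towards the most abundant members, such as Calr and P4hb.

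Several promoters of this pathway carry a known control element, the ER stress response element (ERSE), which ATF6 and XBP1 bind together with the factor NF-Y. It joins CCAAT to CCACG with 9 bases between, and was searched on both strands in the RefSeq promoter windows of GRCm38.p6, each from 250 bases before to 50 bases after a gene's start. Of the 47 genes tested, 42 matched a window, and 10 of these held an ERSE (23.8%), against 16 of the 7102 windows of genes tested (0.225%) and 35 of all 27025 windows (0.13%). Among the members without overlap 6 of 14 windows held it, namely those of Hspa5, Dnajc3, Creld2, Pdia6, Ero1lb and Syvn1. Among the members whose groups overlapped it was 4 of 28, those of Hsp90b1, Calr, Canx and Derl3. The related element ERSE-II, ATTGG and CCACG with 1 base between, was found in 2 of the 42 windows, Dnajb11 and Herpud1, neither of which held an ERSE. The lists were put together from knowledge of the pathway, part of which rests on this element, so the share in the list is no independent result.

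Shown here are the windows of 4 genes without overlap between genotypes, and of Canx, which holds the element and whose groups overlapped. Capitals mark the ERSE, or its reverse complement where it lies on the other strand, and each window runs 5′ to 3′ along the gene.
Creld2 (chr15:88819396-88819695, plus strand): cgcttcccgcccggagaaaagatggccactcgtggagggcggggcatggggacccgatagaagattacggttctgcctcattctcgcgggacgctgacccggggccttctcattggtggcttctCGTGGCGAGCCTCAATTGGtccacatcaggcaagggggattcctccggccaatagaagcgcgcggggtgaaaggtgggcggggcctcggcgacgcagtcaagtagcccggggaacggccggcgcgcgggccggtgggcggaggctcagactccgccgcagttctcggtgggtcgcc
Hspa5 (chr2:34771840-34772139, plus strand): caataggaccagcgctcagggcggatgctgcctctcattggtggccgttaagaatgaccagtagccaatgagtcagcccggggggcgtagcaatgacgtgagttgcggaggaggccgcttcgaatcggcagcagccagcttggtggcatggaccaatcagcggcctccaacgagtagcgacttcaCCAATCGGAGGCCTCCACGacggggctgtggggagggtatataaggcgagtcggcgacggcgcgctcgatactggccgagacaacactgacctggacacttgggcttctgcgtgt
Syvn1 (chr19:6046326-6046625, plus strand): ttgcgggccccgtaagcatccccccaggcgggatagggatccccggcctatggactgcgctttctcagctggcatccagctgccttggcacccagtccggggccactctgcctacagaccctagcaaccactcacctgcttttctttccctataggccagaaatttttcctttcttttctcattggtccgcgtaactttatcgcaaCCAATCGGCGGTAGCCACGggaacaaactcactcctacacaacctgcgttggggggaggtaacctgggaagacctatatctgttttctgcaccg
Ero1lb (chr13:12565633-12565932, plus strand): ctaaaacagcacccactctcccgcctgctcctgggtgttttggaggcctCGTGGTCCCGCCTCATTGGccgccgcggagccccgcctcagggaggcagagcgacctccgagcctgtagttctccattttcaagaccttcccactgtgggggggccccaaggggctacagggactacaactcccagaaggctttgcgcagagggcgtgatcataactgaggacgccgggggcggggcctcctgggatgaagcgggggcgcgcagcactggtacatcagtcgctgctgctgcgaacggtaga
Canx (chr11:50325624-50325923, minus strand): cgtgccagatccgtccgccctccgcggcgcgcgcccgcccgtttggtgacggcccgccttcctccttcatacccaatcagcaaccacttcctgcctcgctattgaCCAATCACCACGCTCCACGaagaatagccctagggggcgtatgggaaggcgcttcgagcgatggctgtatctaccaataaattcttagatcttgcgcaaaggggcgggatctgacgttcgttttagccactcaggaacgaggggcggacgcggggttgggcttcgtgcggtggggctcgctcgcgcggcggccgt
The match begins 126 bases before the start in Creld2, 65 in Hspa5, 44 in Syvn1, 201 in Ero1lb and 145 in Canx. It lies on the gene's own strand in Hspa5, Syvn1 and Canx and on the opposite strand in Creld2 and Ero1lb. A match describes the letters of the window and does not show that a factor was bound in these livers.

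Chaperones, which hold unfolded chains, had fold changes above 0 in all 14 members tested (median 0.53). Of the 14, 6 had every Ncoa5+/- mouse above every wild type mouse (2.96% of all loci). Creld2, a secreted disulfide isomerase-like factor induced by ER stress, stood at 31.4, 43.99, 74.6 and 59.6 FPKM in Ncoa5+/- replicates 1 to 4 and at 24.6, 23.4, 10.8 and 11.6 FPKM in wild type replicates 1 to 4. Its log2 fold change was 1.54 (SE 0.34), the largest of the list, and its lowest values were those of wild type replicates 3 and 4. Hspa5, which encodes the main ER chaperone BiP, stood at 516, 544, 623.5 and 552.5 FPKM in Ncoa5+/- and, in wild type, at 461, 335, 252 and 345 FPKM, a log2 fold change of 0.71 (SE 0.19). All 4 wild type mice were below all 4 Ncoa5+/- mice, with wild type replicate 1 the nearest.

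Hyou1, the nucleotide exchange factor of BiP, stood at 52.5, 49.7, 68.2 and 47.6 FPKM in Ncoa5+/- and, in wild type, at 41.8, 29.03, 20.7 and 28.7 FPKM (log2 fold change 0.86, SE 0.21). Dnajb9, a BiP cochaperone that also holds IRE1 inactive, stood at 46.4, 66.5, 56.4 and 51.3 FPKM and 35.4, 41.9, 17.1 and 20.1 FPKM (log2 fold change 1.003, SE 0.28). Wild type replicates 3 and 4 had the lowest Dnajb9, and wild type replicate 2 came nearest to the Ncoa5+/- mice. The cochaperones Dnajc3 (fold change 0.48, SE 0.13) and Dnajc10 (0.24, SE 0.10) also did not overlap. Sdf2l1, a partner of the BiP cochaperones, stood at 16.1, 27.5, 42.1 and 51.3 FPKM and 18.9, 17.8, 22.3 and 15.04 FPKM and did overlap, because Ncoa5+/- replicate 1 was at the wild type level. Hsp90b1, Dnajb11 and Calr showed the same order of mice, with Ncoa5+/- replicate 1 inside the wild type range. Canx, the membrane lectin chaperone, had a fold change of only 0.06 (SE 0.21).

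The disulfide isomerases and oxidases, which form and rearrange the cross-links of secreted proteins, had fold changes above 0 in 8 of 8 members (median 0.48). Of the 8, 4 had every Ncoa5+/- mouse above every wild type mouse (2.96% of all loci). Ero1lb, an oxidase that recharges the isomerases, stood at 18.9, 23.5, 18.6 and 22.7 FPKM in Ncoa5+/- and, in wild type, at 15.5, 15.1, 11.7 and 9.22 FPKM (log2 fold change 0.68, SE 0.17). Its relative Ero1l stood at 6.14, 8.01, 8.61 and 7.35 FPKM and 5.17, 5.95, 3.76 and 4.08 FPKM (log2 fold change 0.58, SE 0.15). The isomerases Pdia4 (0.51, SE 0.15) and Pdia6 (0.46, SE 0.16) completed the group without overlap. P4hb, the most abundant isomerase here at 497 to 547 FPKM in Ncoa5+/- and 421 to 539 FPKM in wild type, had a fold change of 0.17 (SE 0.13) and overlapped.

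Among genes of ER-associated degradation and export 16 of 18 had a fold change above 0 (median 0.32). Of the 18, 4 had every Ncoa5+/- mouse above every wild type mouse (2.96% of all loci). Syvn1, the ubiquitin ligase HRD1 that marks misfolded proteins for the proteasome, stood at 37.9, 33.1, 43.9 and 34.9 FPKM in Ncoa5+/- and, in wild type, at 30.4, 21.6, 13.96 and 19.7 FPKM (log2 fold change 0.82, SE 0.22). Edem1 and Edem3, which trim the sugars of misfolded glycoproteins, had fold changes of 0.38 (SE 0.11) and 0.30 (SE 0.10). The translocon-associated subunit Ssr3 had one of 0.44 (SE 0.12). Herpud1, a short-lived scaffold of the HRD1 complex, stood at 297, 347, 313 and 382 FPKM and 336, 208, 197 and 154 FPKM and overlapped, with wild type replicate 1 inside the Ncoa5+/- range. Outside the list, Svip, a small inhibitor of ER-associated degradation, ran the other way, with 4.12, 6.01, 3.54 and 3.70 FPKM in Ncoa5+/- and 8.85, 6.31, 12.6 and 13.7 FPKM in wild type (log2 fold change -1.06, SE 0.24).

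The sensors and transcription factors of the response showed no common direction, with 4 of 7 fold changes above 0 and a median of 0.14. Eif2ak3, the sensor kinase PERK, was the only one without overlap, at 4.31, 5.93, 4.37 and 4.74 FPKM in Ncoa5+/- and 3.01, 3.94, 1.84 and 2.32 FPKM in wild type (log2 fold change 0.65, SE 0.18). Xbp1 stood at 85.3, 125, 152 and 123.5 FPKM and 83.2, 163, 82.6 and 93.5 FPKM, with the highest value in wild type replicate 2. Locus FPKM does not separate the spliced from the unspliced Xbp1 transcript. The sensor genes Ern1 (-0.18, SE 0.19) and Atf6 (0.14, SE 0.13) overlapped between genotypes.

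**Figure D2:**
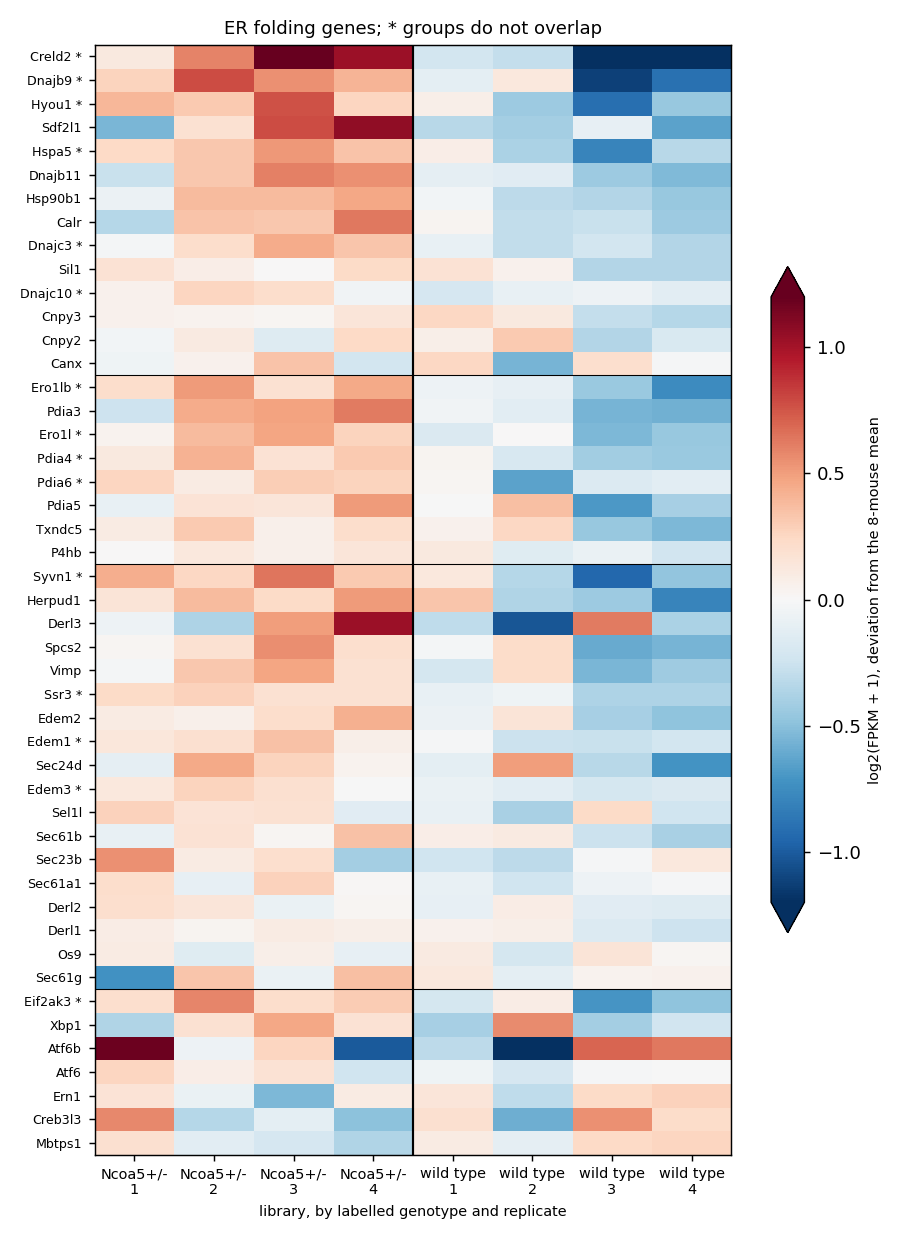
Heat map of the 47 ER folding genes tested (rows, grouped by lines into chaperones, isomerases and oxidases, degradation and export, and sensors and factors) in 8 livers (columns). Colour is log2(FPKM + 1) as deviation from the mean of the 8 mice, and a star marks the 15 genes whose groups do not overlap. Most starred rows are lowest in wild type replicates 3 and 4, and the sensors at the bottom show no common direction.

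The ER counts were also taken without wild type replicates 3 and 4, the lowest in most of these genes. Against wild type replicates 1 and 2 alone, 15 of the 47 genes had all Ncoa5+/- mice above the wild type mice, where 6.46% of all loci did so, and the median log2 fold change was 0.27. With any single mouse left out, 15 to 21 genes had no overlap, beside 3.31% to 8.45% of all loci. A gene without overlap among all 8 mice stays so when mice are left out. These counts therefore could not fall below 15 and give no support for the difference. Creld2 kept a fold change of at least 1.02 in all 18 alternatives, and Dnajb9 ran from 0.49 to 1.38.

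**Figure D3:**
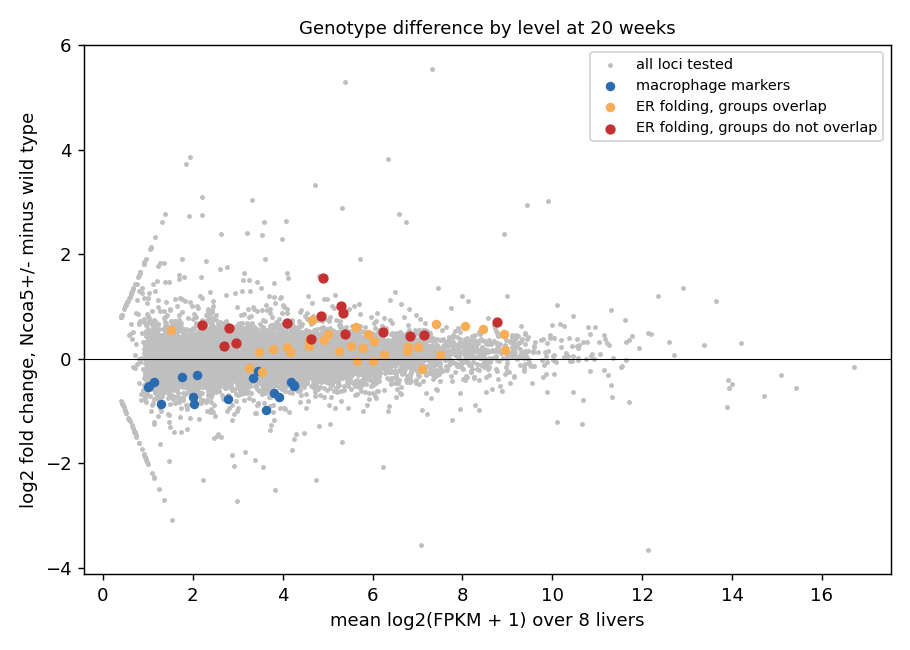
Log2 fold change (Ncoa5+/- minus wild type, y axis) against the mean log2(FPKM + 1) of 8 livers (x axis) for 10963 loci in grey. ER folding genes are red where the genotypes do not overlap and orange where they do, and macrophage markers are blue. The red points lie between 0.24 and 1.54 and span low to high levels, and all 17 blue points lie below 0.

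The authors' deposited table of the same comparison, in the format of Cuffdiff, called 294 of 13975 loci with an OK status, 180 higher in Ncoa5+/- (1.29%) and 114 lower (0.816%). That list of calls held 7 of the 47 ER folding genes, all higher: Hyou1, Dnajb9, Creld2, Ero1lb, Eif2ak3, Dnajb11 and Sdf2l1. Of its 294 significant loci, 234 were among the loci tested here, and 191 of those 234 overlapped between genotypes. The loci without overlap made up 18.4% of the 234, and the significant loci made up 9.75% of the 441 loci without overlap. The authors' deposited table and limma gave the same sign at 233 of the 234.

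Genes of the integrated stress response are driven by ATF4 when PERK or related kinases slow translation. Fold changes were above 0 in 24 of 30 members tested (median 0.23). Only 1 of the 30 had every Ncoa5+/- mouse above every wild type mouse, near the 2.96% of all loci. Gdf15, a stress hormone, stood at 1.63, 1.45, 5.79 and 4.05 FPKM in Ncoa5+/- and, in wild type, at 0.520, 1.26, 1.44 and 1.02 FPKM (log2 fold change 0.93, SE 0.34). The list level stood at -0.088, -0.019, 0.383 and 0.301 in Ncoa5+/- and -0.143, -0.016, -0.188 and -0.231 in wild type, so the 2 high mice were Ncoa5+/- replicates 3 and 4. Asns, asparagine synthetase and a standard ATF4 target, reached 10.2 FPKM in Ncoa5+/- replicate 3 alone, with 1.22, 0.522 and 2.71 FPKM in the other Ncoa5+/- mice and 0.706 to 2.60 FPKM in wild type. Atf4 (0.36, SE 0.23) and Ddit3 (0.80, SE 0.35), which encodes CHOP, both overlapped. Trib3, another target, had a fold change of -0.46 (SE 0.33).

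The protein p21, encoded by Cdkn1a and named in the study's title, is a p53 target that halts the cell cycle. Cdkn1a (GRCm38, chr17:29090978-29100722) stood at 8.04, 0.666, 10.4 and 1.58 FPKM in Ncoa5+/- replicates 1 to 4 and at 0.592, 0.499, 1.08 and 0.499 FPKM in wild type replicates 1 to 4. Ncoa5+/- replicates 1 and 3 were far above the other 6 mice, and Ncoa5+/- replicate 2 lay inside the wild type range. The means were 5.16 ± 4.78 and 0.667 ± 0.277 FPKM (SD, n = 4 and 4), and the log2 fold change was 1.47. A two-sided exact permutation test gave p = 0.0571, or 0.114 adjusted over the 2 genes tested. The smallest p this design allows is 0.0286, which adjusts to 0.0571 beside the large p of Ncoa5. The adjusted test could therefore not pass the threshold set for adjusted p, and it does not decide whether Cdkn1a differed. The authors' deposited table gives Cdkn1a a q-value of 0.00413. With each mouse left out in turn, the log2 fold change ran from 1.04 to 1.96 and the exact adjusted p from 0.0571 to 0.4. The smallest possible p was again 0.0286, so the adjusted test could not pass there either.

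Of 36 p53 genes, 23 were tested and 13 lay below 1 FPKM on average. Fold changes were above 0 in 15 of the 23 (median 0.15), all Ncoa5+/- mice lay above all wild type mice in 3 (2.96% of all loci), and the reverse held in 1 (1.06% of all loci). The list level was 0.212, -0.062, 0.264 and 0.099 in Ncoa5+/- and -0.143, -0.093, -0.097 and -0.181 in wild type, so that Ncoa5+/- replicate 2 lay only just above wild type replicates 2 and 3. Trp53inp1, a p53-induced factor in cell death and autophagy, stood at 19.7, 18.5, 19.8 and 33.02 FPKM in Ncoa5+/- and, in wild type, at 12.2, 7.84, 11.8 and 11.4 FPKM (log2 fold change 0.99, SE 0.21). Btg2, an antiproliferative gene that is also an immediate early gene, stood at 5.41, 3.20, 13.5 and 10.3 FPKM and 1.997, 2.92, 2.39 and 2.25 FPKM (log2 fold change 1.27, SE 0.35). Fas, the death receptor, stood at 9.24, 9.88, 15.9 and 11.6 FPKM and 7.77, 8.75, 6.995 and 6.45 FPKM (log2 fold change 0.55, SE 0.17). Trp53inp1 was highest in Ncoa5+/- replicate 4, and Btg2 and Fas in Ncoa5+/- replicate 3. Ncoa5+/- replicate 1, which was high in Cdkn1a, did not stand out in these 3 genes.

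Trp53 itself had a fold change of 0.00 (SE 0.12), with 6.85 to 9.62 FPKM in Ncoa5+/- and 7.57 to 8.85 FPKM in wild type. Its degraders Mdm2 (0.28, SE 0.14) and Mdm4 (-0.28, SE 0.14) overlapped between genotypes. Members of DNA repair and metabolism leaned the other way, with 2 of 7 above 0, and Ddb2, a damage recognition factor, had all Ncoa5+/- mice below all wild type mice (2.43 to 3.03 against 3.04 to 3.53 FPKM). The fold changes of p53 genes thus lay on both sides of 0.

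The untreated comparison at 39 weeks called 30 of 11441 loci (0.262%) in limma at an adjusted p under 0.05, between 5 Ncoa5+/- and 4 wild type mice. The fit held all 17 mice of that age in 4 groups. Metformin-treated mice thus entered the filter and the variance behind these calls. The 30 loci were traced back to the younger livers, which are other mice. Of the 30, 3 unnamed loci had no match, 6 fell below 1 FPKM at 20 weeks and 21 were tested. The 20-week fold change was above 0 in 19 of the 21 (median 0.44), where 54.4% of all loci were above 0. At 20 weeks 3 of the 21 had every Ncoa5+/- mouse above every wild type mouse (2.96% of all loci). The highest of the 8 mice was Ncoa5+/- replicate 1 in 9 of the 21 and Ncoa5+/- replicate 3 in 7, while over all loci tested these mice were highest at 14.7% and 16.3%. Cars, a tRNA synthetase, peaked in wild type replicate 2 and Asap3 in wild type replicate 4.

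2410089E03Rik, the locus with the largest 39-week difference (4.27 on the log2 scale, limma adjusted p = 0.000106), stood at 12.9, 1.25, 4.34 and 1.505 FPKM in the 20-week Ncoa5+/- mice and at 1.18, 1.13, 1.12 and 0.811 FPKM in wild type. Ncoa5+/- replicates 1 and 3 were again the highest, and the groups did not overlap. Gsta1, a glutathione transferase of the NRF2 pathway, stood at 24.8, 5.69, 26.6 and 10 FPKM and 4.72, 8.66, 4.87 and 3.54 FPKM (log2 fold change 1.29, SE 0.46). Its near-identical neighbour Gm10639 stood at 7.96, 2.02, 8.03 and 2.63 FPKM and 1.42, 2.97, 2.0 and 1.82 FPKM, and reads that fit both copies could have been divided between them. Ccnd1, the G1 cyclin D1, stood at 16.1, 5.35, 13.03 and 4.55 FPKM and 3.18, 5.60, 7.62 and 7.21 FPKM. In all 4 of these loci Ncoa5+/- replicates 1 and 3 were the highest 2 of the 8 mice, and Ncoa5+/- replicate 2 lay at or near the wild type level.

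Ephx1, the microsomal epoxide hydrolase, stood at 505, 285, 292 and 365 FPKM and 246, 285, 250.3 and 255 FPKM and did not overlap, by a margin of less than 1 FPKM between Ncoa5+/- replicate 2 and wild type replicate 2. The clone-named locus WI1-49P9.2 stood at 28.5, 10.9, 19.6 and 13.6 FPKM and 10.2, 8.89, 2.13 and 4.18 FPKM without overlap. Bax, the pore-forming death factor, stood at 26.7, 20.8, 30.8 and 31.4 FPKM and 19.1, 24.8, 16.1 and 16.8 FPKM (log2 fold change 0.50, SE 0.18) and was highest in Ncoa5+/- replicate 4. Plk2, Mbl2, Htatip2, Tmem43, Ccng1, Gstm1, Gstm3, D2Wsu81e and Mgat5 had 20-week fold changes between 0.05 and 0.47. Endog (0.04) and the merged locus of Gm11974 and Gm22457 (-0.26) differed by less than their SE. Of the 6 loci below the filter, Eda2r read 2.31, 0.089, 0.461 and 0.125 FPKM in Ncoa5+/- against 0.127 to 0.248 FPKM in wild type, Phlda3 1.09, 0.248, 0.987 and 0.307 against 0.244 to 0.834 FPKM, and Atp8b5 1.10, 0.216, 0.151 and 0.335 against 0.138 to 0.406 FPKM. Zmat3, Gm13657 and Slc22a3 overlapped between genotypes as well.

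**Figure D4:**
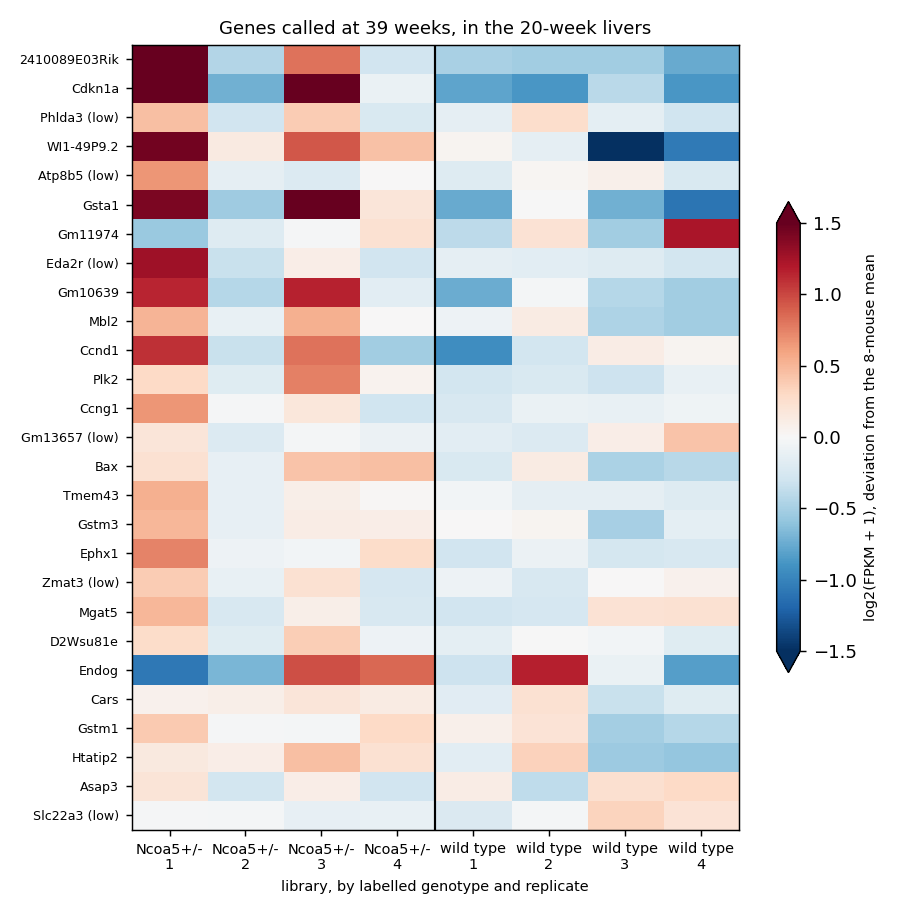
Heat map of 27 loci that differed between genotypes in untreated mice at 39 weeks (rows, ordered by the 39-week log2 fold change, low marking a mean under 1 FPKM), shown in the 8 livers at 20 weeks (columns). Colour is log2(FPKM + 1) as deviation from the mean of the 8 mice. Most of the red lies in Ncoa5+/- replicates 1 and 3, and replicate 2 is close to the wild type columns.

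The ER list itself read otherwise in the older cohort. At 39 weeks 9 of its 47 members had a fold change above 0, with a median of -0.10, and 0 were called. Over all 11441 loci at that age 44.4% were above 0, and the median was -0.0165. Creld2 ran from 16.4 to 174 FPKM in 5 untreated Ncoa5+/- mice and from 13.02 to 242 FPKM in 4 untreated wild type mice, and Hspa5 from 167 to 684 and 187 to 1248 FPKM. The high end in Ncoa5+/- was 1 mouse, replicate 5. The other 4 lay at 16.4 to 21.7 FPKM for Creld2 and at 167 to 240 FPKM for Hspa5, below all 4 Ncoa5+/- mice at 20 weeks, although levels were set across cohorts that were normalized separately. The cohorts were prepared and sequenced apart, and the difference between ages was not tested.

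The acute phase list, mostly genes that hepatocytes raise under cytokine signals such as interleukin-6, had the largest list shift (32 of 34 above 0, median 0.61), but the shift lay in 2 mice. Of the 34, 26 are secreted and raised in inflammation (all above 0, median 0.67) and 7 are signalling genes (5 above 0). Rbp4 (0.20) was the only one tested of 6 genes lowered in inflammation, so that side could hardly be read. At 39 weeks 5 of 27 members tested were above 0 (median -0.15). Saa1, serum amyloid A, stood at 56.9, 20.1, 5697 and 549 FPKM in Ncoa5+/- replicates 1 to 4 and at 33.1, 45.04, 44.6 and 24.1 FPKM in wild type replicates 1 to 4. Mt2, a metallothionein, stood at 8.30, 4.98, 2569 and 340.2 FPKM and 6.41, 6.02, 9.24 and 8.03 FPKM. In both genes Ncoa5+/- replicate 3 was the highest by far, replicate 4 came next, and replicates 1 and 2 lay within or near the wild type range. Saa1 and Saa2 are near-identical copies, so their split of reads is uncertain.

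Only Orm1, Orm2 and Mt1 of the 34 had every Ncoa5+/- mouse above every wild type mouse, where 2.96% of all loci did. Orm1, an acid glycoprotein, stood at 1218, 1204, 1922 and 1522 FPKM in Ncoa5+/- and 1040.1, 1099.7, 850.3 and 709.5 FPKM in wild type (log2 fold change 0.66, SE 0.22). The margin was small in Orm2 (15.9, 14.8, 187 and 16.2 against 10.4, 11.2, 9.60 and 5.07 FPKM) and in Mt1 (51.6, 54.1, 2993 and 561 against 45.5, 38.1, 47.95 and 37.9 FPKM), and Ncoa5+/- replicate 3 was far above the other mice in both. The authors' deposited table called 12 of the 34, all higher in Ncoa5+/-, where it called 1.29% of all its loci higher. Without Ncoa5+/- replicate 3 the median of the list was 0.37. Stat3, the factor that drives the response, stood at 19.9, 14.6, 48.6 and 25.1 FPKM and 16.98, 14.9, 18.2 and 19.6 FPKM, and its inhibitor Socs3 at 7.62, 6.44, 11.3 and 22.1 FPKM and 9.10, 8.65, 5.14 and 4.13 FPKM.

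NF-kB genes followed the same 2 mice. Cxcl1, a neutrophil-attracting chemokine, stood at 4.37, 6.08, 86.1 and 144 FPKM in Ncoa5+/- and, in wild type, at 4.35, 5.78, 3.97 and 2.77 FPKM. Icam1 stood at 2.39, 2.24, 10.9 and 9.20 FPKM and 1.63, 3.20, 1.73 and 1.91 FPKM, and the feedback factor Bcl3 at 10.2, 6.31, 38.9 and 26.8 FPKM and 9.33, 8.82, 6.45 and 8.18 FPKM. None of the 16 NF-kB genes tested was free of overlap. The neutrophil markers S100a8, S100a9 and Retnlg summed to 2.55, 1.70, 17.6 and 14.8 FPKM in Ncoa5+/- and 1.54, 2.56, 2.72 and 2.94 FPKM in wild type, high in the same pair, and Retnlg was at 0 in at least 1 mouse. Their part in the result was not tested.

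Immediate early genes, which rise within minutes of a stimulus, were highest in Ncoa5+/- replicate 4, whose list level was 1.03 against -0.174 to 0.173 in the other Ncoa5+/- mice. Junb stood at 8.08, 11.1, 31.5 and 79.2 FPKM in Ncoa5+/- and 10.04, 16.6, 14.5 and 7.66 FPKM in wild type. Of 27 genes, 22 were tested and 5 lay below 1 FPKM on average (median 0.56, or 0.18 without Ncoa5+/- replicate 4). Btg2, given above, did not overlap. Nr4a1 and Gadd45b did not overlap either, but both reached the filter only through the Ncoa5+/- mice and so had to differ, which makes their separation no result. Both remain in the list level and the medians given here. Nr4a1, an orphan nuclear receptor, stood at 0.620, 0.452, 0.596 and 5.76 FPKM and 0.200, 0.222, 0.192 and 0.318 FPKM, so that replicate 4 alone carried it past a mean of 1 FPKM. Cytosolic heat shock genes had fold changes above 0 in 11 of 11 members, and Hsph1 stood at 28.5, 38.03, 58.7 and 78.4 FPKM and 31.2, 29.5, 7.61 and 6.96 FPKM. Ncoa5+/- replicate 4 was the highest and wild type replicates 3 and 4 the lowest, and no member was free of overlap.

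**Figure D5:**
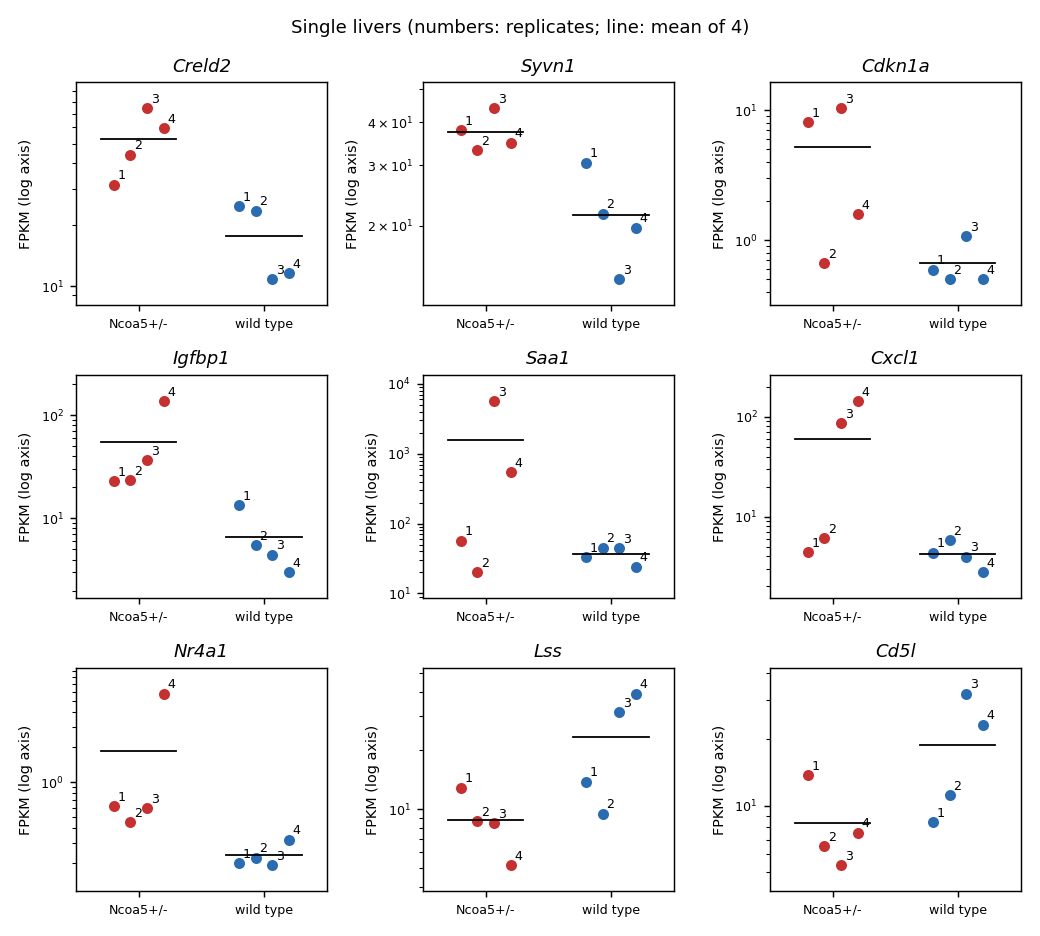
FPKM (log axes) of 9 genes in single livers, labelled Ncoa5+/- in red and wild type in blue, with replicate numbers and a line at the mean of 4. Creld2, Syvn1 and Igfbp1 do not overlap between genotypes, and nor does Nr4a1, which passed the filter through Ncoa5+/- replicate 4 alone. Cdkn1a is high in Ncoa5+/- replicates 1 and 3, Saa1 and Cxcl1 in Ncoa5+/- replicates 3 and 4, and Lss and Cd5l in wild type replicates 3 and 4.

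Genes of fasting and gluconeogenesis had fold changes above 0 in 8 of 9 members (median 0.43). Of the 9, 1 had every Ncoa5+/- mouse above every wild type mouse (2.96% of all loci). Igfbp1, a growth factor binding protein that insulin represses, stood at 22.8, 23.6, 36.8 and 137 FPKM in Ncoa5+/- and, in wild type, at 13.4, 5.53, 4.46 and 3.01 FPKM (log2 fold change 2.63, SE 0.60). Ncoa5+/- replicate 4 was the highest, and the other 3 still lay above wild type replicate 1. Tat, tyrosine aminotransferase, stood at 777, 624, 775 and 921 FPKM and 770.2, 242, 254 and 262 FPKM, overlapping through wild type replicate 1 alone. The gluconeogenic enzymes Pck1 (0.64, SE 0.35) and G6pc (0.43, SE 0.51) overlapped.

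Fat oxidation genes showed no common direction, with 12 of 26 fold changes above 0 and a median of -0.04. Of the 26, 1 had every Ncoa5+/- mouse above every wild type mouse (2.96% of all loci). Pdk4, a kinase of that list which spares glucose by inhibiting pyruvate dehydrogenase, was its only member without overlap, at 1.18, 1.90, 1.83 and 1.85 FPKM in Ncoa5+/- and 0.579, 0.874, 0.652 and 1.06 FPKM in wild type (log2 fold change 0.58, SE 0.15). Its wild type mean was under 1 FPKM, so it passed the filter through the Ncoa5+/- mice.

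Insulin signalling genes were mixed, with 5 of 8 above 0. Irs2, the insulin receptor substrate, stood at 4.86, 4.09, 2.40 and 8.32 FPKM and 3.49, 2.34, 4.03 and 2.23 FPKM. The clock output gene Dbp, which swings over the day, stood at 44.7, 39.2, 26.7 and 33.9 FPKM and 61.8, 71.7, 50.01 and 31.5 FPKM, and Per1 at 10.1, 6.19, 6.11 and 11.7 FPKM and 10.9, 3.70, 3.98 and 3.92 FPKM. The labels give no hour of dissection or feeding state, and the part of these in the result was not tested.

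Cholesterol synthesis genes, targets of SREBP2, had fold changes below 0 in 24 of 26 members (median -0.35), where 45.6% of all loci were below 0. The list level was 0.058, -0.165, -0.358 and -0.280 in Ncoa5+/- and -0.133, -0.147, 0.419 and 0.606 in wild type, high in wild type replicates 3 and 4. Lss, lanosterol synthase, stood at 12.9, 8.67, 8.47 and 5.17 FPKM in Ncoa5+/- and, in wild type, at 13.8, 9.45, 31.3 and 38.9 FPKM. Hmgcs1 stood at 49.4, 54.6, 30.4 and 51.2 FPKM and 42.5, 63.6, 108 and 123 FPKM with the same 2 mice on top. Against wild type replicates 1 and 2 alone the median was -0.03. Sc5d, a late step, was the member with every Ncoa5+/- mouse below every wild type mouse (228, 231, 145 and 161 against 235, 237, 261 and 273 FPKM), and Ggps1, a side branch enzyme, had the reverse order (2.14 to 2.48 against 1.68 to 2.13 FPKM). Each of these orders held in 1 of the 26 members, beside 1.06% of all loci lower and 2.96% higher without overlap. The regulator Srebf2 had a fold change of -0.26 (SE 0.15).

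Fatty acid synthesis genes had fold changes below 0 in 13 of 13 members, with a median of only -0.12. Of the 13, 1 had every Ncoa5+/- mouse below every wild type mouse (1.06% of all loci). Acacb, the acetyl-CoA carboxylase that controls fat oxidation, stood at 9.23, 8.29, 6.53 and 10.3 FPKM in Ncoa5+/- and, in wild type, at 13.5, 11.5, 10.6 and 12.00 FPKM (log2 fold change -0.44, SE 0.14), the only member without overlap. Srebf1, which encodes SREBP1, stood at 63.9, 25.2, 22.01 and 18.2 FPKM and 46.7, 24.7, 71.3 and 80.6 FPKM, with Ncoa5+/- replicate 1 at the level of the high wild type mice. Fitm1, which helps fat leave the ER into droplets, stood at 34.9, 34.7, 31.4 and 50.2 FPKM and 51.2, 67.6, 75.9 and 50.9 FPKM (log2 fold change -0.69, SE 0.19) without overlap. The margin between Ncoa5+/- replicate 4 and wild type replicate 4 was narrow. Fitm1 is of the lipid droplet list, where 1 of 12 members was lower without overlap (1.06% of all loci). Of those 12, 6 had fold changes above 0 (median 0.02).

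Markers of other liver cell types differed between the libraries. All 17 macrophage markers tested had fold changes below 0 (median -0.53), but 0 were free of overlap. Timd4, Adgre1, Marco and Cd163 stood at 0.641, 0.640, 0.859 and 0.867 FPKM in Ncoa5+/- in the authors' deposited table. They reached the filter through the wild type mice, which favoured their direction. That table called 8 of the 17, all lower, where it called 0.816% of all its loci lower. At 39 weeks, in other mice, 0 of the 17 were above 0 (median -0.32), where 44.4% of all loci were above 0. Limma called 0 of them there. Cd5l, a Kupffer cell protein, stood at 13.7, 6.55, 5.36 and 7.52 FPKM in Ncoa5+/- and, in wild type, at 8.41, 11.1, 32.1 and 23.3 FPKM, and Clec4f, which marks Kupffer cells, at 17.8, 14.6, 12.4 and 15.3 FPKM and 14.6, 27.8, 23.4 and 22.8 FPKM. The 18 macrophage markers measured summed to 154, 88.1, 105 and 95.3 FPKM in Ncoa5+/- and 102, 148, 260.1 and 206 FPKM in wild type. The high mice were wild type replicates 3 and 4, the ones with the lowest ER list level, and Ncoa5+/- replicate 1 lay above wild type replicates 1 and 2. In bulk tissue fewer cells of a type and less RNA per cell cannot be told apart.

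Endothelial markers had fold changes below 0 in 18 of 20 members (median -0.21), with a summed level of 70.9 to 134 FPKM in Ncoa5+/- and 104 to 136 FPKM in wild type and a low in Ncoa5+/- replicate 3. Stellate cell and matrix genes had fold changes below 0 in 13 of 14 members (median -0.12), where 45.6% of all loci were below 0, and 0 were free of overlap. Stellate cell markers summed to 104 to 141 and 102 to 142 FPKM, a sum weighted towards abundant members such as Dcn and Ecm1. Of the 7 lymphoid and myeloid markers tested, 3 were above 0, and the 4 below were those of antigen presentation (median -0.40). T and NK cell markers came to 1.18 to 3.67 and 1.41 to 2.42 FPKM in sum, and cholangiocyte markers to 33.2 to 39.9 and 26.3 to 40.7 FPKM, with Cftr at 0 in at least 1 mouse. Globin and other erythroid genes summed to 299, 269, 305 and 352 FPKM in Ncoa5+/- and 265, 246, 256 and 229 FPKM in wild type, above in every Ncoa5+/- mouse. The 18 of 24 hepatocyte markers measured summed to 6143 to 6700.2 and 4978 to 7013 FPKM, so liver transcripts were abundant in all 8 libraries. Of the 24, 5 were failed estimates, listed at 0 or unnamed, and 1 shares a locus with another gene. Only 1 of the 6 secreted protein markers, Apob, entered that sum. The part of cell makeup in the ER difference was not tested.

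Some other lists held 1 or 2 members without overlap, where 2.96% of all loci were higher without overlap and 1.06% lower. The counts in the larger lists were near those shares. Higher were 1 of 35 proteasome, 1 of 34 urea and amino acid, and 1 of 32 complement and coagulation genes. Lower was 1 of 72 ribosomal protein genes. The members below are given for their values and are no result about their lists. Etnppl, a phospholyase of the periportal list, stood at 96.9, 85.1, 105.5 and 83.7 FPKM in Ncoa5+/- and 66.01, 60.1, 41.3 and 38.00 FPKM in wild type (log2 fold change 0.87, SE 0.20). Apob, the scaffold of very low density lipoprotein, stood at 1396, 1698, 1530.4 and 1504 FPKM and 1281, 1386, 639 and 850.0 FPKM. Gclc, which catalyses the limiting step of glutathione synthesis, stood at 87.1, 79.2, 93.00 and 75.2 FPKM and 54.8, 74.5, 65.3 and 59.1 FPKM. Gclc and Ephx1, given above, were the 2 of 30 genes of the NRF2 and glutathione list without overlap. Tfrc, the transferrin receptor, had a fold change of 0.52 (SE 0.19), the complement regulator Cfi 0.44 (SE 0.16), the mitochondrial ornithine carrier Slc25a15 0.46 (SE 0.16), and the proteasome subunit Psmb2 0.32 (SE 0.15). Complement and coagulation genes had list levels of 0.157, 0.018, 0.076 and 0.044 in Ncoa5+/- and -0.033, -0.048, -0.086 and -0.128 in wild type, with 26 of 32 fold changes above 0 but a median of only 0.13. The 14 core proteasome genes all had fold changes above 0 (median 0.24). Rpl27a, a ribosomal protein gene, was lower in every Ncoa5+/- mouse (114, 191, 115 and 143 against 234, 197, 191 and 203 FPKM), while 53 of 72 ribosomal protein genes had fold changes above 0. Respiratory chain genes had fold changes above 0 in 59 of 70 (median 0.17), and the median was -0.09 against wild type replicates 1 and 2 alone.

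Nuclear receptor coactivators of the Ncoa family had fold changes below 0 in 6 of the 7 genes of their list, which includes Esr1. Ncoa4, which delivers ferritin to lysosomes, stood at 17.5, 7.29, 11.1 and 4.51 FPKM and 16.4, 4.34, 25.6 and 22.4 FPKM, and Ncoa2 at 4.36, 3.60, 3.55 and 3.28 FPKM and 3.80, 3.34, 8.98 and 6.39 FPKM, high in wild type replicates 3 and 4. Esr1, the oestrogen receptor alpha, had a fold change of 0.26 (SE 0.17).

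Outside the lists, the loci without overlap and with the smallest limma p were named. Among those higher in Ncoa5+/-, Atp2a2, the calcium pump SERCA2 that fills the ER store, stood at 41.7, 43.1, 58.6 and 44.8 FPKM in Ncoa5+/- and 35.8, 29.3, 26.3 and 27.1 FPKM in wild type (log2 fold change 0.65, SE 0.15). Nck1, an adaptor protein of receptor signalling, stood at 19.9, 21.98, 25.7 and 20.6 FPKM and 15.5, 15.9, 11.1 and 12.6 FPKM (log2 fold change 0.65, SE 0.15). The mitochondrial leucine tRNA mt-Tl1 stood at 807, 1446, 959 and 1390.3 FPKM and 547, 204, 119 and 153 FPKM (log2 fold change 2.39, SE 0.45). The authors' deposited table did not call it (q-value 0.274). Of 13 mitochondrially encoded genes listed, 6 share a locus with another gene. A further 4 were failed estimates, listed at 0 or unnamed, so values of mitochondrial loci are uncertain here. Nme6, Mbnl2, Prkcd, Ostm1, Usp32, Scfd2, Swt1, Lysmd3 and Mettl20 had fold changes of 0.42 to 0.59. Mbnl2 is a splicing regulator and Prkcd the kinase PKC-delta.

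Among those lower in Ncoa5+/-, Gltscr2, a nucleolar protein, stood at 49.3, 60.3, 49.4 and 47.3 FPKM and 89.98, 70.3, 94.04 and 86.1 FPKM (log2 fold change -0.71, SE 0.14), the smallest limma p of this direction. Arhgap26 (-1.02, SE 0.27), Eepd1 (-0.81, SE 0.21) and Arap1 (-0.73, SE 0.19) had their highest values in wild type replicates 3 and 4. Aqp9, the glycerol channel of hepatocytes, stood at 1.31, 0.814, 0.556 and 0.900 FPKM and 1.93, 1.33, 2.45 and 2.48 FPKM, and passed the filter only through the wild type mice. Hmgb1, a chromatin protein, stood at 43.1, 47.01, 30.5 and 39.4 FPKM and 58.7, 51.7, 60.9 and 58.7 FPKM. R3hcc1, Tradd, Sphk2, Tecpr1 and Trim12a had fold changes of -0.58 to -0.42. The locus given for Sphk2 has the same coordinates as that of Dbp, so reads of the neighbours may not have been told apart.

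Loci listed at 0 in a whole group decide the counts of calls. With failed estimates kept at 0, limma called 13 loci, all of them loci left out here, among them Ahsg, Apoa2, Ttr, Gc and Fabp1, which hepatocytes make in bulk. Ahsg was listed at 0 in all 4 wild type mice and at 5578 to 7118 FPKM in Ncoa5+/-. Without wild type replicate 4 limma called 4 loci and without wild type replicates 3 and 4 it called 5. These were an unnamed locus, Snora21, Gm25777, Gm10217 and, in the second case, Gm23134, each listed at 0 in all 4 Ncoa5+/- mice. Snora21 stood at 3.93, 5.97, 3.52 and 0 FPKM in wild type replicates 1 to 4. No protein-coding gene of the lists was among them.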

How the data were processed

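RNA-seq of total liver RNA from 25 mice was deposited, of which the 8 untreated 20-week mice (4 labelled Ncoa5+/-, 4 wild type) were compared. Per the submitters' processing notes, reads were trimmed with Trimmomatic 0.33 and passed through TopHat2, Cufflinks and Cuffnorm on GRCm38.p5. The authors deposited FPKM per locus and mouse, and a table of their own genotype comparison at 20 weeks with log2 fold changes and p-values and q-values. How Cuffnorm scaled the libraries is not given in the sources used here. The authors' deposited log2 fold changes differed from those of the mean FPKM by a median of 0.0391 at 6537 loci above 5 FPKM on average. Loci that name several genes were kept as 1 feature, and FPKM hold no depth, so no counting interval is given.

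A pseudocount of 1 FPKM was added, log2 was taken, and limma 3.58.1 (R 4.3.3) with a trend was fitted to the 10963 loci whose mean over the 8 mice reached 1 FPKM, with Benjamini-Hochberg adjustment and a threshold of 0.05. Positive differences are higher in Ncoa5+/-. A locus at 0 in all mice of 1 group, above 0 in every mouse of the other group and with a mean of at least 1 FPKM there was left out as a possible failed estimate. Members that reached the filter through 1 group stay in the list counts and medians, although the filter favours their direction. Among these are Cdkn1a, Atf3 and Ccne1, with wild type means of 0.667, 0.455 and 0.728 FPKM. The macrophage marker Adgre1 is one in the other direction (0.640 FPKM in Ncoa5+/- in the authors' deposited table), and so are Timd4, Marco and Cd163, given above. In data simulated for this comparison over 10963 loci, 200 loci with a mean log2(FPKM + 1) above 2 were changed. Of changes of 1 on the log2 scale 65.0% were recovered, and of changes of 2 96.5%, with 6 and 10 false calls. The noise was normal and drawn separately for each locus, without shifts that many loci of a mouse share. The recovered shares therefore do not cover lower loci or such shared shifts, and may be too high for these libraries. Ncoa5 and Cdkn1a were tested by an exact permutation test over mice. The labels name single mice but not litters, and p-values measure the spread between these samples. The alternatives were other pseudocounts, filters, scalings and limma settings, each mouse left out, and wild type replicates 3 and 4 left out. Python 3.11.15 with pandas 2.3.3, numpy 2.4.6 and matplotlib 3.10.9 made the other tables and the figures.

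The members and the 39 gene lists (1028 genes) were chosen with earlier results of these data known. Named by rule were Ncoa5, Cdkn1a, regulators of each list, up to 6 members per list without overlap, the 12 loci per direction outside the lists with the smallest limma p among regular gene symbols without overlap, and every gene called at 39 weeks or under an alternative. Other members, such as Saa1, Cxcl1, Lss, Cd5l, Canx and Hsph1, were singled out after their values were seen. Promoter windows came from RefSeq (GRCm38.p6), from 250 bases before to 50 after the start.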

Additional observations from a re-analysis of the deposited data

Results flagged for a closer look

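In 10 of 126 groups of 4 mice that were checked, 1 mouse stood apart from the other 3 by more than Dixon's 95% critical value for its gap over the range. Chance alone gives about 1 in 20 such groups. No explanation was tested.

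Among genes, Trp53inp1 was at 33.02 FPKM in Ncoa5+/- replicate 4, while the other 3 Ncoa5+/- mice were at 18.46 to 19.8 FPKM. Igfbp1 was at 137.1 FPKM in the same mouse and at 22.83 to 36.78 FPKM in the other 3. Gltscr2 was at 60.28 FPKM in Ncoa5+/- replicate 2 and at 47.29 to 49.35 FPKM in the others. Pdk4 was at 1.18 FPKM in Ncoa5+/- replicate 1 and at 1.831 to 1.902 FPKM in the others. Cdkn1a was at 1.076 FPKM in wild type replicate 3, against 0.4991 to 0.5916 FPKM in the other wild type mice.

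Among list levels (mean log2 deviation from the 8 mice), the macrophage list stood at 0.154 in Ncoa5+/- replicate 1 and at -0.493 to -0.395 in the other Ncoa5+/- mice. The list of growth hormone and STAT5 genes stood at -0.337 in wild type replicate 1 and at 0.296 to 0.348 in the other wild type mice. Wild type replicate 2 stood apart in 3 lists. The lipogenesis level was -0.013 there against 0.136 to 0.154, the list of fetal and tumour genes 0.186 against -0.186 to -0.129, and the cell cycle list 0.015 against -0.067 to -0.064.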

How the results depend on the processing

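Of 650 values recomputed under 18 alternatives, 626 kept their direction and call and moved by less than the limits set. Of the other 24, 3 were reversals of the Ncoa5 difference and 21 moved, and 1 of the 21 also changed sign. Limma called 0 loci in the main setting and in 15 alternatives, 13 with failed estimates kept at 0, 4 without wild type replicate 4 and 5 without wild type replicates 3 and 4. With 1 mouse left out at a time the count of calls ran from 0 to 4. The Ncoa5 difference reversed to 0.0537 without Ncoa5+/- replicate 2, to 0.0700 without wild type replicate 3 and to 0.147 without wild type replicates 3 and 4, and ran from -0.156 to 0.0700 with 1 mouse left out. The cause was not tested. For Cdkn1a and Ncoa5 a filter at a mean of 5 FPKM gave no value. The exact adjusted p of Cdkn1a could pass the threshold in no setting, so its side of the threshold carries no information. All 358 values of the 20 genes followed through the alternatives kept their direction and their side of the threshold. Apart from Bax and Gsta1, these genes were without overlap, so leaving mice out could not turn their direction. With a smallest adjusted p of 0.603 in limma, the side of the threshold was also unlikely to change. The agreement is thus no support for stability. The sign change among the 21 moved values was in the median of respiratory chain genes, at -0.0926 without wild type replicates 3 and 4. It was the only 1 of 13 list medians to change sign. Loci with every Ncoa5+/- mouse above every wild type mouse numbered 231 to 929, and those with the reverse 49 to 547. No paired analysis was possible because the labels give the mice no shared replicate numbers. FPKM hold no fragment counts, so the precision of low values such as Nr4a1, Pdk4 and Eda2r is not known.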
